A study of Homo sapiens with 16 samples.

Results

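Protein arginine methyltransferases were described in 2 human melanoma cell lines through 10 genes: the methyltransferases PRMT1, PRMT2, PRMT3, CARM1, PRMT5, PRMT6, PRMT7 and PRMT9, and WDR77 and CLNS1A, which encode protein partners of PRMT5. The genes were chosen by symbol, each matched exactly 1 of the 60676 gene identifiers in the count tables, and all 10 were among the 19247 genes that passed the low-count filter. Total RNA was sequenced from 8 libraries of A101D, labelled as dependent on methionine, and 8 libraries of MeWo, labelled as independent of it. The study asked what follows when methionine in the culture medium is replaced by homocysteine, its precursor. The labels describe a control medium with methionine and a methionine-free medium with homocysteine, both with dialyzed serum and added cystine, but they do not say which library grew in which medium. Replicates 1 to 4 and 5 to 8 of each line are therefore shown by their numbers, with no test between them and no medium assigned. Both groups are cultures of an established tumour line, so genetic background, lineage state and culture history cannot be told apart in a difference between the lines. Nothing in the labels says that the libraries came from separate cultures, and p-values measure the spread between these libraries only.

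Protein arginine methyltransferases transfer methyl groups from S-adenosylmethionine, which cells make from methionine, to arginine side chains. Type I enzymes (PRMT1, PRMT2, PRMT3, CARM1, PRMT6 and PRMT8) form asymmetric dimethylarginine, type II enzymes (PRMT5 and PRMT9) form symmetric dimethylarginine, and the type III enzyme PRMT7 forms monomethylarginine. PRMT5 works in a complex with the WD-repeat protein WDR77, and CLNS1A, also called pICln, presents Sm proteins of the spliceosome to that complex. MTAP degrades methylthioadenosine, a by-product of polyamine synthesis that inhibits PRMT5, and the MTAP gene is often deleted in melanoma.

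Library totals were between 28910881 and 38961862 counts for A101D and between 31217443 and 38722489 for MeWo, and the members held 379 to 8323 counts per library. Values are counts per 1000000 counts of the library (CPM), scaled by trimmed-mean (TMM) factors. The summed CPM of 8 melanocytic markers was 2518 to 3449 in A101D and 10251 to 11473 in MeWo. PMEL (6242 to 6838 CPM) and TYRP1 (2063 to 2603 CPM) made up most of the MeWo sum, while DCT (log2 difference -1.56) and S100B (-2.21) were lower in MeWo. Summed leukocyte markers stayed at or below 0.380 CPM and endothelial markers at or below 2.0005 CPM in every library of both lines. Keratinocyte markers (KRT1, KRT5 and KRT14) reached 2.25 CPM, with KRT1 at 0 counts in A101D, and fibroblast markers were at 2.39 to 4.53 CPM across A101D and 72.7 to 83.4 CPM across MeWo, where LUM held most of the sum (68.6 to 79.1 CPM). PDGFRA, also in that list, lay the other way, at 1.10 to 2.09 CPM in A101D and 0.256 CPM or less in MeWo. The part of these marker differences in the results below was not tested. MeWo replicate 2 stood apart with 34471 genes carrying a count, where the remaining MeWo libraries had 30066 to 31433. Without it the fitted direction and call of every member were as with it.

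In GENCODE v29 (GRCh38) all 10 members are protein-coding genes. PRMT1 lies at chr19:49675786-49689029 and CARM1 at chr19:10871513-10923070, both on the plus strand. PRMT2 lies at chr21:46635167-46665124, PRMT3 at chr11:20387530-20509294, PRMT6 at chr1:107056679-107067636 and PRMT7 at chr16:68310974-68358563, all on the plus strand. PRMT5 lies at chr14:22920511-22929585, PRMT9 at chr4:147637785-147684230, WDR77 at chr1:111439890-111449376 and CLNS1A at chr11:77514936-77637805, all on the minus strand. Some exons are shared with other genes. PRMT5-AS1 (308 counts in all libraries) covers 27.1% of the PRMT5 exon bases on the opposite strand. YIPF2 (29731 counts) covers 19.9% of those of CARM1, and ATP5PB (105175 counts) covers 12.5% of those of WDR77, also on the opposite strand. On the same strand, ENSG00000243960 (351 counts in all libraries) covers 24.0% of the WDR77 exon bases and ADM5 (706 counts) covers 7.63% of those of PRMT1. The strand setting of the counting is not given in the sources used here, so reads of the antisense pairs may not be separated, and strand cannot separate the same-strand pairs.

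The start sites of the members are shown because several of them differed in the same direction between libraries. RefSeq promoter windows (GRCh38.p14), which run from 250 bases before to 50 bases after a gene's start, were found for all 10 members, with a second window for CARM1 and PRMT7. Their GC content was 54.0% in CLNS1A to 82.3% in a CARM1 window, against a median of 58.7% over 35116 windows. Both strands were searched for 8 motifs, none of which holds another. The CCAAT box (CCAAT, in 34.6% of all windows) was found in PRMT1 and PRMT5, the E-box (CACGTG, 7.26%) in PRMT3 and WDR77, the palindrome CTCGCGAG (1.02%) in WDR77, and the ETS motif (CCGGAAG, 10.3%) in PRMT3 and CLNS1A. The NRF1 motif (CGCNTGCGC, 7.52%) was found in PRMT2 and the cAMP response core (TGACGT, 7.98%) in PRMT9. TTTNGCGC (1.79%) and TGATGNAAT (0.991%) were in no member's window. Those printed below stand in 30 bases each on the gene's strand, 5′ to 3′, with the match in capitals. The first base of a match is counted from the RefSeq start of its window, which can lie inside the GENCODE v29 gene given above. The 30 bases at PRMT1 -156, for example, are chr19:49677102-49677131. ATTGG and CTTCCGG are CCAAT and CCGGAAG read from the other strand.
PRMT1, -156: acgtattctctagCCAATtactagacggta
PRMT5, -183: accagaccctgagATTGGtggatccatgcc
PRMT5, -143: gtgcagcccgcggATTGGcaggaaaagcca
PRMT5, -35: gtttgactttgtgATTGGctactagtatca
WDR77, -194: cgctcacaagtCTCGCGAGatgaaaatttt
WDR77, -48: tagaagcaattCTCGCGAGaagtagagttg
WDR77, +11: tcagaggtgcacCACGTGgggtttgctgcc
PRMT3, -187: ccgcccccacctCACGTGacccgcacggcg
CLNS1A, -16: gactaagttgttCTTCCGGggtgactgcct
PRMT2, -183: gatgtgaagtgCGCCTGCGCggggcgcagc
PRMT2, -75: tcttaggactgCGCCTGCGCggggcgccgg
PRMT2, -14: tgcgtgcactgCGCTTGCGCgggttgaggg
PRMT5 and its 2 partners thus shared none of the 8 motifs across all of their windows. Longer stretches are given for CLNS1A, the member that differed most between the lines (239 bases at chr11:77637806-77638044, minus strand), and for PRMT6, the member whose A101D libraries differed in the direction opposite to the others (250 bases at chr1:107056424-107056673, plus strand). Both lie outside every exon in GENCODE v29 and hold no complete match, so they carry no capitals.
CLNS1A: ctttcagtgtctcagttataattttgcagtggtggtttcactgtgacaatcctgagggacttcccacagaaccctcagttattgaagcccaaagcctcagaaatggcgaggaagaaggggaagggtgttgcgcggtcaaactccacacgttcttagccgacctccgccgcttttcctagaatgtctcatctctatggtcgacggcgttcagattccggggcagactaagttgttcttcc
PRMT6: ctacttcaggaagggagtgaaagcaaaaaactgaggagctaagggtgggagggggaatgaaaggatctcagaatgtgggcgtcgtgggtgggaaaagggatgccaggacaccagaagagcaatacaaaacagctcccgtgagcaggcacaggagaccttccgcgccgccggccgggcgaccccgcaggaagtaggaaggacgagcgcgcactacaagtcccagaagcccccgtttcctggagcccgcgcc

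Between the lines, 7 members were higher in MeWo (PRMT1, PRMT3, CARM1, PRMT5, PRMT7, PRMT9 and CLNS1A) and 3 were lower (PRMT2, PRMT6 and WDR77), by limma with voom weights at an adjusted p below 0.05. So many genes differed between these lines that a call carries little by itself: 38.6% of all genes tested were called higher and 40.4% lower. The members' median log2 fold change, MeWo minus A101D, was 0.52, against -0.02 over all genes tested. In 5 members all MeWo libraries exceeded all A101D libraries, as in 26.6% of genes tested, and in 3 members every MeWo library lay below, as in 31.1%. PRMT1 and CARM1 were the members whose lines overlapped. In bulk RNA, fewer cells expressing a gene and less RNA per cell cannot be told apart.

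**Figure D1:**
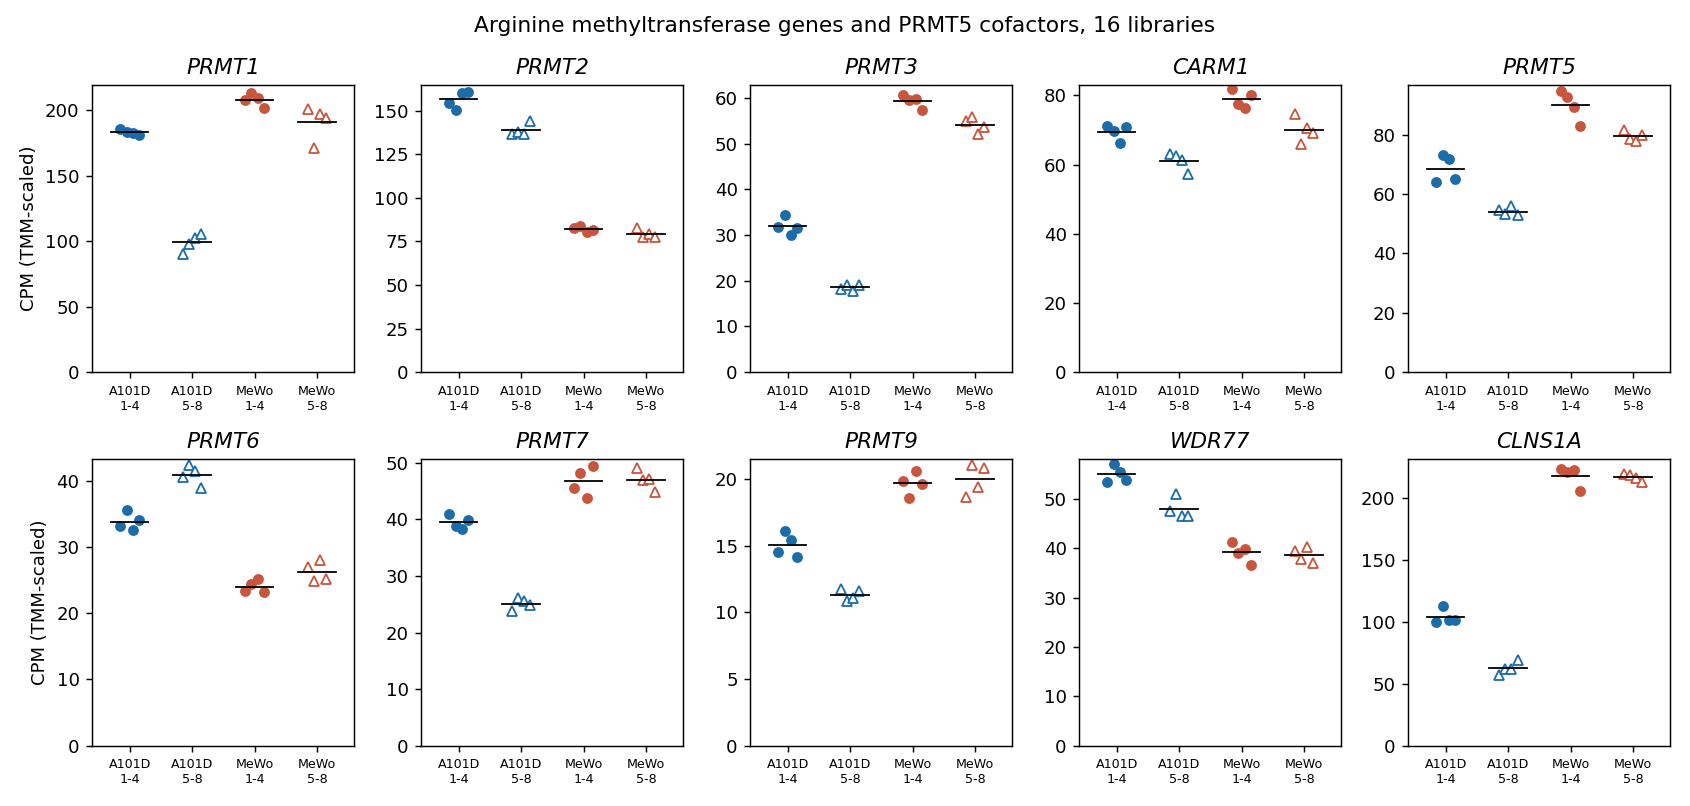
TMM-scaled CPM (vertical axes, from 0) of each member in the 16 libraries, by line and replicate number (horizontal axis), with the mean of each set of 4 libraries as a line. PRMT1, PRMT3, PRMT7 and CLNS1A sit at a lower level in A101D replicates 5 to 8 (PRMT1 at 90.5 to 106 CPM), while the MeWo sets lie closer together.

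Among the type I enzymes, PRMT1, which makes most of the asymmetric dimethylarginine in mammalian cells, had a lowest, median and highest value of 90.5, 144 and 185 CPM in A101D and 171, 201 and 213 CPM in MeWo. Its A101D libraries formed separate sets: replicates 1 to 4 were at 185, 183, 182 and 181 CPM, and replicates 5 to 8 at 90.5, 98.0, 102 and 106 CPM. In MeWo, 7 of 8 libraries lay between 194 and 213 CPM and replicate 6 at 171 CPM. The fitted log2 difference between the lines was 0.56 (SE 0.16, limma adjusted p = 0.00363), a fold of 1.48. PRMT3, a cytosolic enzyme that methylates a protein of the small ribosomal subunit, was split in the same way at a lower level. Its A101D replicates 1 to 4 held 31.7, 34.4, 30.03 and 31.5 CPM and replicates 5 to 8 held 18.3, 19.2, 17.7 and 19.0 CPM, and the MeWo libraries ran from 52.1 to 60.7 CPM with a median of 56.6. The lines did not overlap, and PRMT3 was 2.34-fold higher in MeWo (log2 difference 1.23, SE 0.13, limma adjusted p = 1.68e-07).

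CARM1, a coactivator that methylates histone H3 and splicing factors, had the smallest line difference of the 10 members. It ran between 57.4 and 71.1 CPM in A101D (median 64.6) and between 65.8 and 81.8 CPM in MeWo (median 75.5), and the ranges overlapped. The log2 difference was 0.19 (SE 0.06, limma adjusted p = 0.00478), and reads shared with YIPF2 may enter it. PRMT2, an enzyme with an SH3 domain and weak activity of its own, lay the other way. Its A101D libraries ran from 137 to 161 CPM (median 147), its MeWo libraries from 77.4 to 83.8 CPM (median 81.2), with no overlap. The A101D level was 1.83-fold that of MeWo (log2 difference -0.87, SE 0.04, limma adjusted p = 2.91e-12), and this was the largest difference toward A101D among the members. PRMT6, a nuclear enzyme that methylates histone H3, was at 32.6 to 42.4 CPM across A101D (median 37.2) and 23.2 to 28.0 CPM across MeWo (median 25.0), 1.48-fold higher in A101D (log2 difference -0.57, SE 0.07, limma adjusted p = 3.22e-07). Thus the type I group held members called in either direction.

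PRMT5, the main type II enzyme, was higher in MeWo. The A101D replicates 1 to 4 held 64.0, 73.1, 71.7 and 65.0 CPM and replicates 5 to 8 held 54.6, 53.2, 55.9 and 52.9 CPM. The MeWo replicates 1 to 4 held 94.7, 92.7, 89.4 and 82.9 CPM and replicates 5 to 8 held 81.6, 78.7, 77.9 and 79.9 CPM. The lines did not overlap, and within each line replicates 5 to 8 all lay below replicates 1 to 4. The log2 difference between the lines was 0.48 (SE 0.08, limma adjusted p = 1.6e-05), a fold of 1.39. PRMT9, the other type II enzyme, which methylates a splicing factor of the spliceosome's branch-site complex, had the lowest values of the members. It ran between 10.9 and 16.1 CPM in A101D (median 12.9) and between 18.5 and 21.0 CPM in MeWo (median 19.8), without overlap, and was 1.53-fold higher in MeWo (log2 difference 0.61, SE 0.08, limma adjusted p = 2.05e-06). PRMT7, the monomethylating enzyme, ran between 23.8 and 41.0 CPM in A101D (median 32.2) and between 43.7 and 49.4 CPM in MeWo (median 47.0), 1.49-fold higher in MeWo (log2 difference 0.58, SE 0.12, limma adjusted p = 0.000204).

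The partners of PRMT5 differed between the lines in opposite directions. WDR77 held 53.5, 57.1, 55.5 and 53.8 CPM in A101D replicates 1 to 4 and 47.5, 51.1, 46.6 and 46.7 CPM in replicates 5 to 8. In MeWo it ran from 36.7 to 41.4 CPM with a median of 39.4, below every A101D library. WDR77 was 1.32-fold higher in A101D (log2 difference -0.40, SE 0.05, limma adjusted p = 1.15e-06). CLNS1A held 100.0, 113, 101.3 and 101.2 CPM in A101D replicates 1 to 4 and 57.4, 61.8, 61.9 and 69.1 CPM in replicates 5 to 8. In MeWo it stayed between 205 and 223 CPM with a median of 219. CLNS1A was 2.701-fold higher in MeWo (log2 difference 1.43, SE 0.13, limma adjusted p = 1.55e-08), the largest difference of the 10 members and the single one called by a test against a 2-fold change (limma treat, adjusted p = 0.00849).

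**Figure D2:**
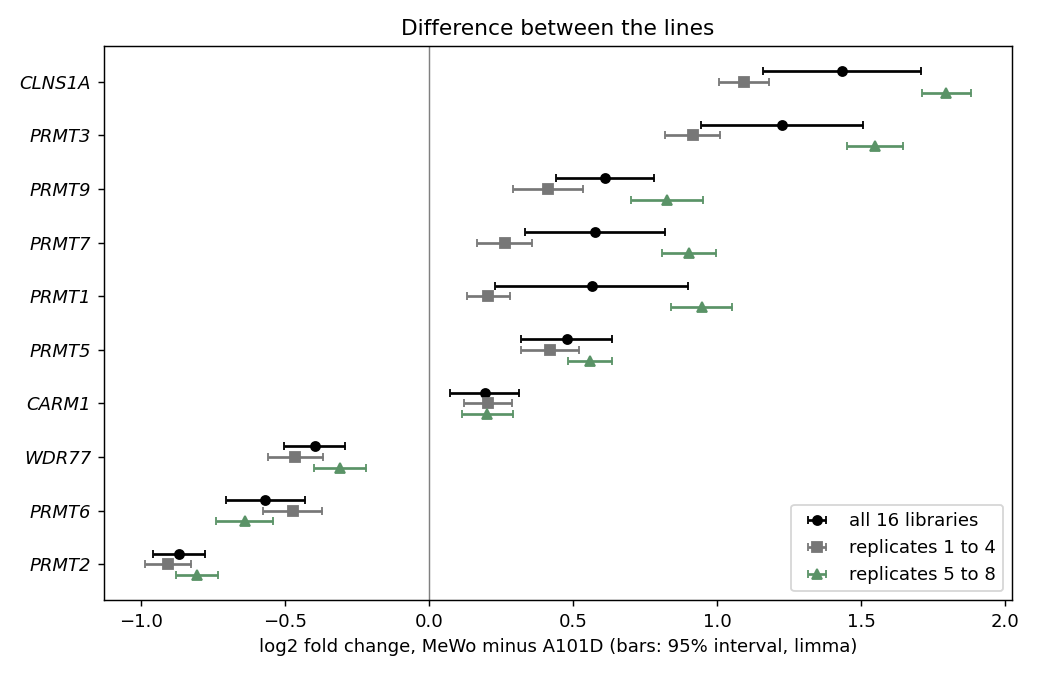
Fitted log2 fold change between the lines (horizontal axis, MeWo minus A101D, with 95% intervals from limma) for each member (vertical axis), over all 16 libraries, replicates 1 to 4 alone and replicates 5 to 8 alone. CLNS1A and PRMT3 lie farthest to the right and PRMT2 farthest to the left, and the values for PRMT1, CLNS1A, PRMT7 and PRMT3 differ more between the sets of replicates than those of the other members.

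The MTAP transcript was all but missing from A101D. It held 0, 2, 0, 1, 0, 2, 1 and 0 counts in A101D replicates 1 to 8, and 2336 to 3050 counts (75.04 to 79.9 CPM) in the MeWo libraries. With 6 counts in all of A101D, the ratio of the lines was 3484 (95% interval 1600 to 9495, counting error only). The gene copy number, methylthioadenosine and PRMT5 activity were not measured here, so the files give the levels of PRMT5 transcripts beside those of MTAP and nothing on the enzyme.

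Ratios of transcripts within a library, taken per kilobase of exon, need no scaling between libraries. WDR77 and PRMT5 were near parity in A101D, where the ratio of WDR77 to PRMT5 was 0.957 to 1.19 (median 1.03), and MeWo held fewer WDR77 than PRMT5 counts per kilobase, with a ratio of 0.522 to 0.640 (median 0.561). CLNS1A to PRMT5 was 0.794 to 1.18 in A101D (median 1.03) and 1.78 to 2.09 in MeWo (median 1.94). CLNS1A to WDR77 was 0.738 to 1.21 in A101D and 3.26 to 3.51 in MeWo. None of these 3 ratios overlapped between the lines. Within A101D, CLNS1A to PRMT5 lay between 1.07 and 1.18 for replicates 1 to 4 and between 0.794 and 0.986 for replicates 5 to 8. CLNS1A to WDR77 likewise lay at 1.11 to 1.21 and then at 0.738 to 0.904. The ratio of WDR77 to PRMT5 overlapped slightly, at 0.957 to 1.03 and 1.03 to 1.19. In MeWo, both CLNS1A to PRMT5 (1.78 to 1.87, then 2.01 to 2.09) and WDR77 to PRMT5 (0.522 to 0.550, then 0.573 to 0.640) were higher in replicates 5 to 8. The reads shared between WDR77 and the abundant ATP5PB may enter these ratios.

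**Figure D3:**
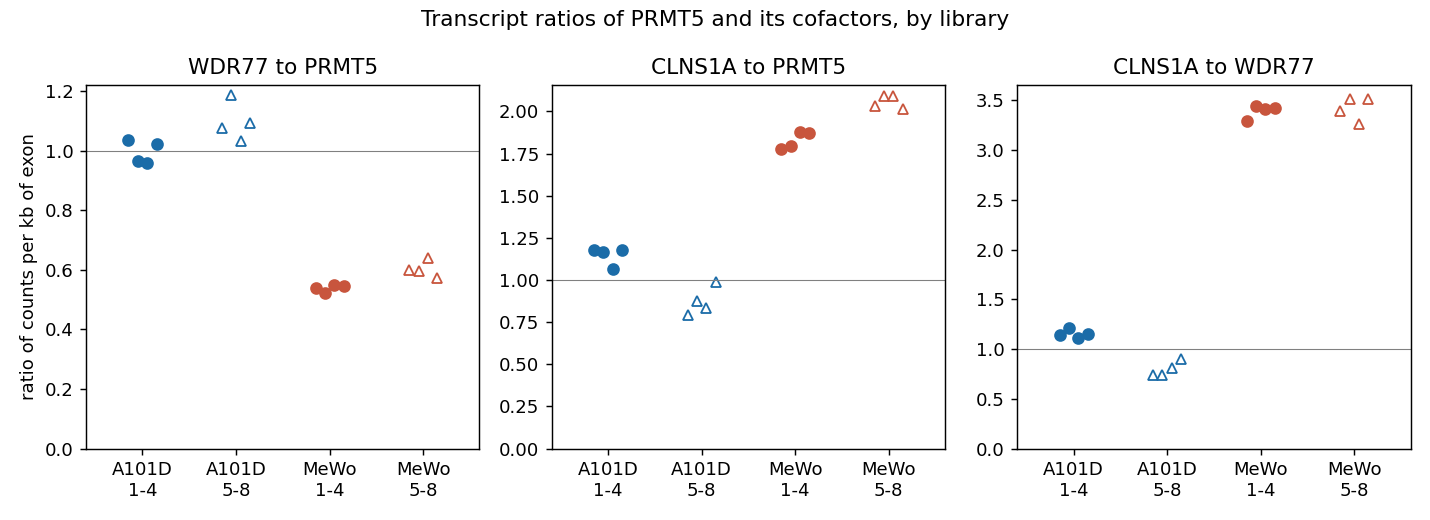
Ratios of counts per kilobase of exon between WDR77, CLNS1A and PRMT5 (vertical axes, from 0) in each library, by line and replicate number (horizontal axis), with a horizontal line at equal levels. The A101D libraries lie on both sides of equal levels in all panels, with replicates 1 to 4 above and 5 to 8 below for both CLNS1A ratios. The MeWo libraries lie below for WDR77 to PRMT5 and above for both CLNS1A ratios.

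Levels of different genes were compared per kilobase of exon. In MeWo the order of the medians was CLNS1A (47.6 CPM per kb), PRMT1 (42.0), PRMT5 (23.7), CARM1 (17.0), WDR77 (14.03), PRMT3 (10.4), PRMT2 (10.1), PRMT6 (5.76), PRMT7 (4.97) and PRMT9 (4.92). Neighbours in this order overlapped in range only for PRMT3 with PRMT2 and for PRMT7 with PRMT9. In A101D, PRMT1 was highest (29.9 CPM per kb), and WDR77 (18.7), CLNS1A (18.4), PRMT2 (18.3), PRMT5 (17.3) and CARM1 (14.5) followed, each overlapping its neighbour in range. PRMT6 (8.58) stood alone between that group and PRMT3 (4.50), PRMT7 (3.40) and PRMT9 (3.22), which again overlapped as neighbours. The medians from WDR77 to CARM1 spanned 14.5 to 18.7 CPM per kb in A101D, and those of the same genes 10.1 to 47.6 CPM per kb in MeWo. These genes were grouped by their A101D medians, so a narrower span in A101D was set by the choice. Exon lengths are the union of all annotated exons, so a gene with long exons that these cells do not use is placed too low.

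**Figure D4:**
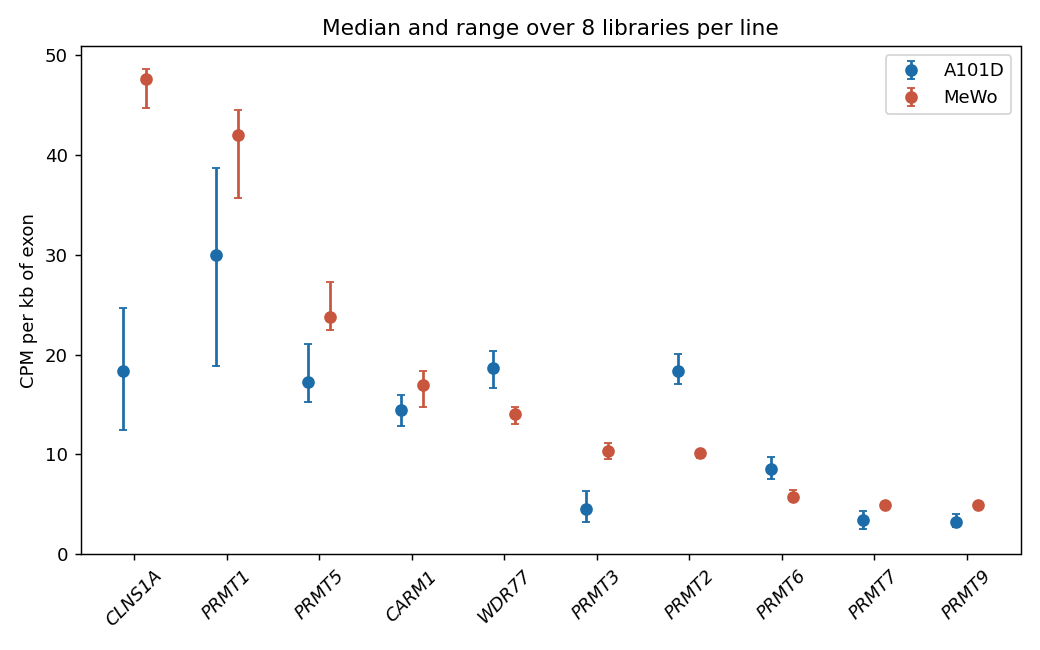
CPM per kilobase of exon (vertical axis, from 0) for each member (horizontal axis, ordered by the MeWo median), as the median with the range over the 8 libraries of each line. In MeWo, CLNS1A and PRMT1 lie above the other members, and in A101D the ranges from WDR77 to CARM1 overlap.

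Replicates 1 to 4 and 5 to 8 of A101D did not overlap for any of the 10 members. In 9 of them every library of replicates 5 to 8 lay below every library of replicates 1 to 4, as in 31.7% of genes tested, and in PRMT6 every one lay above, as in 30.5%. The difference of mean log2 CPM, replicates 5 to 8 minus 1 to 4, was -0.89 for PRMT1, -0.78 for PRMT3, -0.73 for CLNS1A, -0.65 for PRMT7, -0.41 for PRMT9 and -0.34 for PRMT5. It was -0.20 for WDR77, -0.19 for CARM1, -0.17 for PRMT2 and 0.27 for PRMT6. On the linear scale, PRMT1 was thus 1.85-fold and PRMT3 1.72-fold higher in replicates 1 to 4. The median over the members was -0.37, against 0.00 over all genes tested. PRMT1 ranked 1405 from the lowest among the 19247 genes by this difference, so that many other genes differed more. Scaled by upper quartiles, PRMT2 overlapped between the sets, and with no scaling beyond the library total PRMT2, CARM1 and WDR77 did, while the sign of all 10 differences stayed under these scalings and under median-of-ratios factors.

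In MeWo the differences by replicate number were small. Replicates 5 to 8 lay below replicates 1 to 4 without overlap for PRMT5 (difference -0.18), CARM1 (-0.17), PRMT3 (-0.13) and PRMT1 (-0.13), as in 9.4% of genes tested, and above for no member, as in 8.81%. The other 6 members overlapped, with differences of -0.05 for PRMT2, -0.02 for WDR77, -0.01 for CLNS1A, 0.01 for PRMT7, 0.02 for PRMT9 and 0.12 for PRMT6. PRMT1 overlapped as well under median-of-ratios factors, and PRMT6 lay above without overlap under upper-quartile factors and library totals. The signs for WDR77, CLNS1A and PRMT7 were not the same under all scalings. Side by side, CLNS1A was at -0.73 in A101D and -0.01 in MeWo, PRMT7 at -0.65 and 0.01, and PRMT1 at -0.89 and -0.13. CARM1 was at -0.19 and -0.17. Whether the lines differ in these values was not tested, since no label says what separates the sets.

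**Figure D5:**
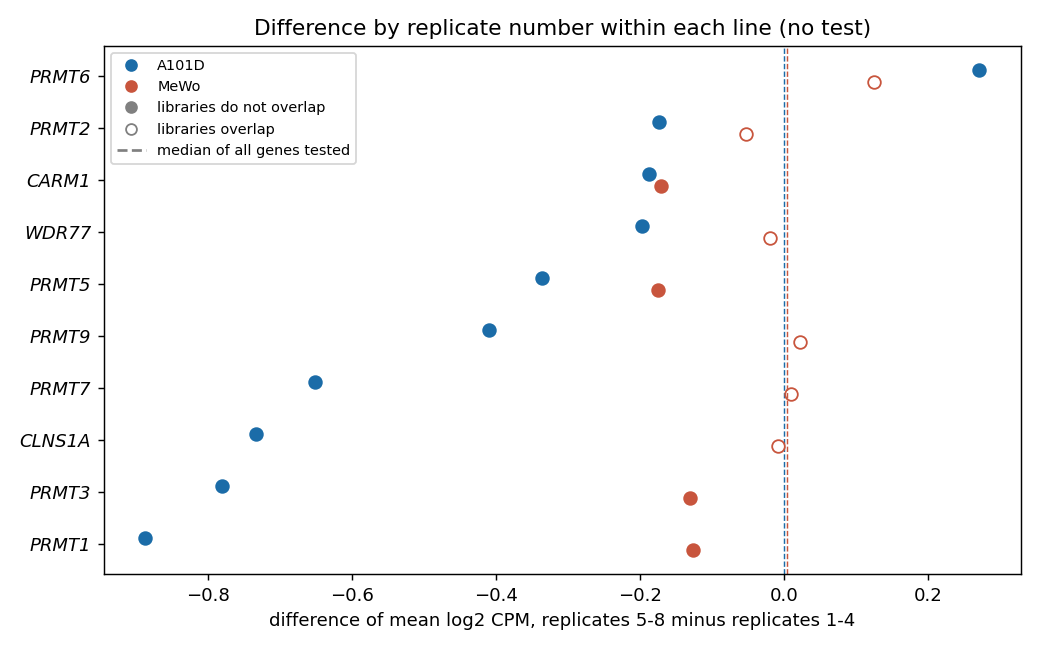
Difference of mean log2 CPM between replicates 5 to 8 and 1 to 4 (horizontal axis) for each member (vertical axis) in each line. Filled points have no overlap between the sets, and dashed lines give the median of all genes tested. The A101D points spread from -0.89 for PRMT1 to 0.27 for PRMT6, and the MeWo points lie between -0.18 and 0.12.

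The line comparison was repeated within each set of replicates. With replicates 1 to 4 alone, the same 7 members were higher in MeWo, beside 39.6% of genes tested, and the same 3 lower, beside 41.6%. With replicates 5 to 8 alone, the 7 and 3 members were again called, beside 41.8% and 43.6%. The log2 difference of PRMT1 was 0.21 (SE 0.04, limma adjusted p = 7.75e-06) in replicates 1 to 4 and 0.95 (SE 0.05, limma adjusted p = 2.94e-13) in replicates 5 to 8. PRMT7 was at 0.26 and 0.90, CLNS1A at 1.09 and 1.80, PRMT3 at 0.92 and 1.55, and PRMT9 at 0.41 and 0.83 in the same order. By contrast CARM1 was at 0.21 and 0.20, PRMT5 at 0.42 and 0.56, WDR77 at -0.46 and -0.31, PRMT6 at -0.47 and -0.64 and PRMT2 at -0.91 and -0.81. The change in size between the sets was not tested.

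Other arginine methyltransferases and the partners of PRMT5 varied widely. PRMT8, the type I enzyme known from brain, had 3 counts in A101D and 5 in MeWo over 8 libraries each and was not tested. METTL23, a histone arginine methyltransferase outside the PRMT family, ran between 15.1 and 23.7 CPM in A101D and between 70.8 and 74.9 CPM in MeWo, a log2 difference of 1.92 (limma adjusted p = 3.41e-13). NDUFAF7, which methylates a subunit of mitochondrial complex I, was lower in MeWo over all libraries (-0.31, limma adjusted p = 0.00528) and with replicates 1 to 4 alone (-0.53), but was not called with replicates 5 to 8 alone (-0.07). It was at 25.0 to 36.9 CPM across A101D and 23.0 to 26.1 CPM across MeWo. Of 3 further partners of PRMT5, STRAP, a WD-repeat protein that also belongs to the SMN complex, was lower in MeWo (-1.57), as was RIOK1, an adaptor that binds PRMT5 at the same place as CLNS1A (-0.47), and COPRS, which brings PRMT5 to histones, was higher (0.86). STRAP ran between 182 and 278 CPM in A101D and between 68.2 and 87.4 CPM in MeWo, RIOK1 from 45.7 to 54.2 and from 35.0 to 39.9 CPM, and COPRS from 35.0 to 46.1 and from 69.0 to 78.1 CPM. All 3 were past the threshold (limma adjusted p = 3.48e-08 or lower).

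A list of 8 Sm and Sm-like genes, drawn up around substrates of PRMT5, holds core proteins of the spliceosomal and U7 small nuclear ribonucleoproteins. Methylation of these proteins was not measured. The list split between the lines: 4 of 8 were called higher in MeWo, 3 lower and LSM2 neither (median log2 difference 0.09). Beside them, 38.6% and 40.4% of all genes tested were called, so that the counts lie near the background. LSM2 was called lower in MeWo with replicates 1 to 4 alone (-0.73) and higher with replicates 5 to 8 alone (0.52). SNRPB (1.06), LSM11 (0.90) and SNRPD1 (0.74) had the largest changes. In A101D, 6 of the 8 were lower in replicates 5 to 8 without overlap and 2 higher, beside 31.7% and 30.5% of all genes tested. LSM11 ran from 18.4 to 20.1 CPM in the A101D libraries 1 to 4, against 6.23 to 7.22 CPM in libraries 5 to 8. Of the 9 genes of the SMN complex, which assembles Sm proteins on RNA, 4 were higher in MeWo, 4 lower and SMN1 neither (median -0.10). SMN2 (3.83), GEMIN6 (-1.25) and GEMIN2 (1.14) had the largest changes. SMN1 and SMN2 are near-identical copies whose reads cannot be divided with certainty, and SMN2 held only 41 counts in all of A101D, so its value is uncertain.

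Of 11 RNA-binding substrates of PRMT1 and CARM1, 7 were higher in MeWo, 1 was lower and 3 were not called, with a median log2 difference of 0.51, beside 38.6% and 40.4% of all genes called and a median of -0.02. The 3 not called, FBL (-0.39, then 0.28), KHDRBS1 (-0.12, then 0.45) and SERBP1 (-0.21, then 0.23), were each called lower in MeWo with replicates 1 to 4 alone and higher with replicates 5 to 8 alone. With replicates 5 to 8 alone, 10 of the 11 were called higher, beside 41.8% of all genes. CIRBP, a cold-inducible RNA-binding protein (1.47), G3BP1, a stress-granule protein (1.04), and HNRNPA1, a splicing repressor (0.92), had the largest changes. Replicates 5 to 8 of A101D lay below replicates 1 to 4 without overlap for 9 of the 11 and above for none, beside 31.7% and 30.5% of all genes tested. G3BP1 was at 357 to 384 CPM in A101D replicates 1 to 4, at 207 to 246 CPM in replicates 5 to 8, and at 555 to 610 CPM in MeWo. Among 4 readers of methylarginine, TDRD3 (3.10) and SMNDC1 were higher in MeWo, and TDRKH (-1.31) and SND1 (-1.07) were lower. TDRD3, a Tudor-domain protein that reads asymmetric dimethylarginine, ran between 34.0 and 40.04 CPM in A101D and between 285 and 344 CPM in MeWo. SND1, a Tudor protein that reads symmetric dimethylarginine, ran between 620 and 1128 CPM in A101D and between 368 and 433 CPM in MeWo.

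Of the PRMT1-binding regulators, BTG2 was lower in MeWo (-5.13), at 25.4 to 32.4 CPM across A101D and 0.662 to 1.03 CPM across MeWo, and BTG1 was higher (0.66). The BTG1 line difference was 1.13 with replicates 1 to 4 alone and 0.22 with replicates 5 to 8 alone. BTG1 in A101D was at 65.5 to 70.2 CPM in replicates 1 to 4 and 121 to 143 CPM in replicates 5 to 8. Replicates 5 to 8 of A101D lay above replicates 1 to 4 without overlap in 30.5% of genes tested. The direction was opposite to that of PRMT1, and a relation between the genes was not tested. Of 8 genes of methylarginine turnover and deimination, 4 passed the low-count filter. DDAH1, which degrades free asymmetric dimethylarginine, was lower in MeWo (-2.13), as were PADI1 (-1.88) and DDAH2 (-0.19), and JMJD6 was higher (1.34). PADI1 held only 144 counts in all of A101D and 38 in MeWo, and its lines overlapped. The lines overlapped for DDAH2 as well (limma adjusted p = 0.0227). DDAH2 was not called with replicates 1 to 4 alone (-0.03) and was called lower with replicates 5 to 8 alone (-0.33). DDAH1 ran between 90.9 and 119 CPM in A101D and between 21.0 and 26.2 CPM in MeWo.

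Of 8 genes of cofactor metabolism, 5 were called higher in MeWo, 1 lower and 2 neither, with a median of 0.67, beside 38.6% and 40.4% of all genes called. With replicates 5 to 8 alone all 8 were called higher, beside 41.8% of all genes tested. The 1 lower, AMD1, a polyamine synthesis enzyme, was at -1.29 with replicates 1 to 4 alone and at 0.16, called higher, with replicates 5 to 8 alone. Over all 16 libraries, MAT2B (1.09) and AHCYL1 (0.92) had the largest changes besides MTAP. MAT2B, the regulatory subunit of the S-adenosylmethionine synthetase, was at 29.5 to 36.4 CPM across A101D and 65.2 to 74.5 CPM across MeWo. AHCYL1 encodes a relative of the enzyme that clears S-adenosylhomocysteine. MAT2A, the catalytic subunit of the synthetase, was picked out here after its values were seen. It was at 133 to 140 CPM in the A101D libraries 1 to 4, against 604 to 622 CPM in libraries 5 to 8, and at 174 to 194 and 621 to 677 CPM in MeWo. Its line difference was not called over all libraries (0.25, SE 0.49, limma adjusted p = 0.642) and was called higher in MeWo within replicates 1 to 4 (0.45) and within replicates 5 to 8 (0.09). AHCY, which hydrolyses S-adenosylhomocysteine, was at 334 to 354 CPM in the A101D libraries 1 to 4, against 223 to 250 CPM in libraries 5 to 8, and at 259 to 273 and 235 to 274 CPM in MeWo.

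For PRMT5, the genes with the most similar pattern over the 16 libraries were sought among 9007 genes with a mean of at least 10 CPM in both lines, by Pearson r of log2 CPM centred within each line. The leading 5 were PRKAR2A (r = 0.974), TGFBR2 (0.972), DEGS1 (0.971), PTDSS1 (0.968) and EIF4G2 (0.968). In both lines PRMT5 was lower in replicates 5 to 8 than in replicates 1 to 4. The sets lay closer in MeWo (77.9 to 81.6 against 82.9 to 94.7 CPM) than in A101D (52.9 to 55.9 against 64.0 to 73.1 CPM). Within a line, r of these 5 genes was 0.970 to 0.986 in A101D and 0.927 to 0.987 in MeWo. The part of that division in r was not tested, so r is given as a description.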

How the data were processed

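The authors deposited 1 table per line, in which each cell joins an Ensembl identifier and a whole-number count over exons of a gene, not normalized, per the file headers. Both parts were separated. GRCh38, Trimmomatic 0.39-1, STAR 2.7.1a and featureCounts 2.0.0 are named in the submitters' processing notes, with no settings. Per the labels' protocols, a strand-preserving library kit for total RNA was used. Symbols matched 60357 and positions 58503 of the 60676 identifiers. Genes with at least 10 counts at the median depth in 8 libraries and 15 in all were tested, over TMM factors computed on those genes. The lines were compared with limma 3.58.1 (voom weights, robust empirical Bayes, R 4.3.3, Benjamini-Hochberg over all genes tested). A quasi-likelihood count test had been planned, with this test in its place should the joined cells not pass a unit check as deposited. That was the case, although the separated values are whole-number counts. The log2 CPM values used a prior count of 2. The fit was tested on simulated data. Named were all members, MTAP, 3 further methyltransferases, and from each list the 3 largest changes past the threshold. LSM2, SMN1, SMNDC1, FBL, KHDRBS1, SERBP1, DDAH2, AMD1, MAT2A, AHCY and the single markers were named after their values were seen. Members and lists were chosen with earlier results of these data known. The closest pairs of libraries in a line differed by more than sampling noise (chi-square per degree of freedom 2.50 in A101D and 1.97 in MeWo), so none was counted once for a pair. A promoter match and a listed gene are not reported here.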

Additional observations from a re-analysis of the deposited data

Results flagged for a closer look

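PRMT1 in MeWo replicate 6 was at 171.1 CPM, while the other 7 MeWo libraries lay at 194 to 213 CPM. The gap to the nearest library was 0.549 of the whole range of that line, above Dixon's 95% critical value for 8 libraries. This gap was checked in 20 sets (10 members in 2 lines), and chance marks about 1 in 20 where the libraries follow a single normal distribution. PRMT1 in MeWo did not overlap between replicates 1 to 4 and 5 to 8, so the critical value and that rate may not hold here.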

How the results depend on the processing

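The direction of all 10 line differences stayed the same under limma-trend, 3 other scalings, omission of the low-count filter, a minimum of 1 CPM, an adjusted p below 0.01, replicates 1 to 4 or 5 to 8 alone, and without MeWo replicate 2, with 7 members called higher and 3 lower each time. A test against a 2-fold change (limma treat) called 1 member higher (CLNS1A) and 0 lower, with 1 and 0 at an unadjusted p under 0.05, where the limma-voom fit it is built on called 7 and 3 without that fold, as did limma-trend. Between the settings of the filter, 15202 of 19247 genes tested were called in the main comparison, 22415 of 47564 with no filter and 12411 of 15158 at 1 CPM; the treat test called 5036. Of the list counts, cofactor metabolism genes called lower were 0 with no filter (1 in all libraries). Those called lower were 2 in replicates 1 to 4, beside 41.6% of all genes tested, and 0 in replicates 5 to 8, beside 43.6%. Those called higher were 8 in replicates 5 to 8, beside 41.8%. For the lists, an adjusted p below 0.01 left 0 cofactor metabolism genes lower (1 at an unadjusted p under 0.05 in limma, as with no filter, and 0 in replicates 5 to 8), and the treat test left 0 Sm and Sm-like genes in either direction and 1 RNA-binding substrate higher and 0 lower, also unadjusted. RNA-binding substrates called lower were 4 in replicates 1 to 4, beside 41.6% of all genes tested. Other arginine methyltransferases called lower were 0 in replicates 5 to 8, beside 43.6%. The cause was not tested. With the replicate number as a block, 7 members were called higher and 3 lower and 15332 genes in all, with 6 cofactor metabolism genes higher in place of 5. Same-numbered libraries of the lines correlated in their deviations at 0.052 to 0.174, and 2 of 8 matched their own number best. Correlations this weak over 8 numbers cannot decide whether the numbers pair the libraries. The planned quasi-likelihood and Wald count tests were not run, since the joined cells did not pass a check of their unit. The values separated from them are whole-number counts. The spread in A101D between replicates 1 to 4 and 5 to 8 enters the errors of the line comparison. The listed genes that were not tested, such as PRMT8 (3 counts in A101D and 5 in MeWo), held too few counts to pass the filter.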
